A study of Mus musculus with 6 samples.

Results

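The cell cycle and proliferation genes described here are 42 genes, 15 for DNA replication and the supply of DNA precursors, 5 regulators of entry into S phase and of mitotic transcription, and 22 for mitosis and cytokinesis. They were taken by gene name from a table of 54532 genes measured by bulk RNA sequencing of mouse hearts, and all 42 were among the 15520 genes that had enough fragments to be tested. The hearts came from C57BL/6 mice on day 7 after myocardial infarction (MI) induced by ligation of the left anterior descending artery. The 3 WT mice were compared with 3 *Crlf2-/-* mice (labelled TSLPR KO), made to lack the receptor chain for the cytokine TSLP throughout the body. Each mouse gave 1 library of infarcted and peri-infarcted tissue. All 6 mice had undergone MI, and no uninjured heart enters the comparison. The methods of the study give adult males of the substrain C57BL/6J as WT, and the WT and *Crlf2-/-* mice came from different suppliers, so genotype and supplier cannot be told apart. The study also followed Ki67 protein, encoded by *Mki67*, on CD4+ T cells, and reported it lower on those of *Crlf2-/-* hearts after MI. Protein on T cells and RNA of whole tissue are unlike measures. The question here is whether proliferation genes differed between the genotypes in whole heart tissue.

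A cell that divides copies its DNA in S phase and separates the copies in mitosis. Origins of replication are loaded with the MCM helicase by *Cdc6* and *Cdt1* before S phase, and E2F factors switch on the genes of replication together with cyclin E. Later in the cycle MYBL2 and FOXM1 switch on the genes of mitosis, among them cyclin B, the Aurora and Polo-like kinases and the kinesins of the spindle. In a healing infarct, dividing cells are mostly fibroblasts, endothelial cells and leukocytes, while adult cardiomyocytes rarely divide.

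The promoters of the 2 kinds of gene are shown first, because replication genes and mitosis genes are known to be switched on through different sequences. RefSeq promoters (GRCm38.p6, 300 bases, from 250 before to 50 after the start) were found for 34 of the 42 members, with 36 promoters in all. The letters searched on both strands were CCAAT (the site of NF-Y), TTTGAA (the core of the cell cycle genes homology region, CHR, of late genes) and E2F-type letters. The E2F-type letters were TTCCCGC, a version of them that reads TTGGCGC and a further version that reads TTCGCGC. On the strand opposite to the gene a CCAAT box reads ATTGG, and its last 4 letters can be the first 4 of an E2F-type match. Of 19 mitosis promoters, 14 (73.7%) held the CHR letters, against 1 of 14 replication promoters (7.14%) and 17.9% of all 32851 promoters in the table. E2F-type letters were in 9 of 14 replication promoters (64.3%), in 5 of 19 mitosis promoters (26.3%) and in 8.07% of all promoters. CCAAT was in 17 of 19 mitosis promoters (89.5%) and 10 of 14 replication promoters (71.4%), with 37.4% among all promoters. CCAAT and CHR letters stood together in 14 mitosis promoters and 1 replication promoter, and in 6.95% of all promoters. None of these letters was found in the 3 regulator promoters (0 of 3), which says only that they are not in these windows. Among cell cycle genes outside the 42 members, E2F-type letters were in 22 of 33 other replication promoters (66.7%) and 8 of 47 other mitosis promoters (17%), and CHR letters were in 6 (18.2%) and 30 (63.8%). A match of letters is a description and not a binding site.

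The promoters below are those of the most abundant replication genes, the most abundant mitosis gene, *Mki67*, and the 2 mitosis genes with the smallest p-values, from 5′ to 3′ with the searched letters in capitals.
Pcna (chr2:132253131-132253430, minus strand): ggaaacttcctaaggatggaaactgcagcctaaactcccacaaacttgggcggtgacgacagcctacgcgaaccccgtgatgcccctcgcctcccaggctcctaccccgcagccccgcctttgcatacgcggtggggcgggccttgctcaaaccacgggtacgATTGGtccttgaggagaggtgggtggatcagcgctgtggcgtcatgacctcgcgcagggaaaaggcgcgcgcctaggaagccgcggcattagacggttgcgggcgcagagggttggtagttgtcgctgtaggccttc
Mcm6 (chr1:128359656-128359955, minus strand): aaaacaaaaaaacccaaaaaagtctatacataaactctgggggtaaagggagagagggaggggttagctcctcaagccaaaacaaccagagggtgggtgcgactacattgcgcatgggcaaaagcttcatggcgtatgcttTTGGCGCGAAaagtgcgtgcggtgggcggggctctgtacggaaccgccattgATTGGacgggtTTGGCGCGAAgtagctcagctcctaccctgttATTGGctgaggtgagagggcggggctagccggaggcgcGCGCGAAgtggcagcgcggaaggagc
Ccnb2 (chr9:70421505-70421804, minus strand): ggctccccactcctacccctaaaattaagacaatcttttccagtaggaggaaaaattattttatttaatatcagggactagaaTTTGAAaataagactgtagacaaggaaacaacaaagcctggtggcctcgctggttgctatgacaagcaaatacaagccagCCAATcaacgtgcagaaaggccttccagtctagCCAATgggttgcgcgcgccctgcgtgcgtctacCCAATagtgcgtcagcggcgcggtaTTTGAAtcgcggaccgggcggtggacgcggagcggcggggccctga
Plk1 (chr7:122159185-122159484, plus strand): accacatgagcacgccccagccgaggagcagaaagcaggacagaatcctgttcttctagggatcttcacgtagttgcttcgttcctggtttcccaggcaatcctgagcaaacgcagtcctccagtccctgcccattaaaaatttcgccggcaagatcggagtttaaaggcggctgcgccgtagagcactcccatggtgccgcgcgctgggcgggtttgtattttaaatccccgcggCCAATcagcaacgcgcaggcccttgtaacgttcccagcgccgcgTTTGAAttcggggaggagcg
Cenpe (chr3:135212313-135212612, plus strand): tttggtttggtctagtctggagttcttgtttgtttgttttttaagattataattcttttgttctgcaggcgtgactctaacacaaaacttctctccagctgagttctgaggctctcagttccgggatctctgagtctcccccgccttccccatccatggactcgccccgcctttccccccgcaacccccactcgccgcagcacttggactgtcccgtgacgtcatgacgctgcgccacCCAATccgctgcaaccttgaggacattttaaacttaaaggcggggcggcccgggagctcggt
Mki67 (chr7:135716330-135716629, minus strand): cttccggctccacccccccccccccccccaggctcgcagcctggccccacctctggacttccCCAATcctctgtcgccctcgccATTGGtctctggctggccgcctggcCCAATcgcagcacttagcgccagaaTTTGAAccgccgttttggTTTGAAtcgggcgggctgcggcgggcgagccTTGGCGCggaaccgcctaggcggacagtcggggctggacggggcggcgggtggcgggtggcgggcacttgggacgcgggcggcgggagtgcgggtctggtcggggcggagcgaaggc

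The replication gene *Mcm6* had 2 CCAAT on the opposite strand and 5 overlapping or single E2F-type matches, 1 of them 25 bases after the start. Positions are those of the first base of a match. *Pcna* had 1 CCAAT, 87 bases before the start, and 0 of the other letters. *Ccnb2* carried 3 CCAAT spaced along the 87 bases before its start and CHR letters on either side of them. *Plk1* had 1 CCAAT 14 bases before the start with CHR letters 31 bases after it, and *Cenpe* had 1 CCAAT 12 bases before the start. In *Mki67*, 3 CCAAT, 2 CHR matches and 1 E2F-type match lay between 188 and 67 bases before the start.

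The libraries held between 18508646 and 19682428 fragments on listed genes, and each member had between 58 and 2639 fragments in each library. The WT libraries had 917, 813 and 707 fragments of *Crlf2* itself, and the *Crlf2-/-* libraries 437, 651 and 667, so its transcripts were not absent from the knockout libraries. The tissue label was checked against 8 cardiomyocyte markers, whose summed level was 1010, 1944 and 1726 FPKM in WT and 812, 667 and 1342 FPKM in *Crlf2-/-* hearts. The libraries differed in how short and long genes were represented. Protein-coding genes of up to 1500 bp lay at a median of 0.15, 0.11 and -0.17 (log2, relative to each gene's mean) in the WT libraries and at -0.18, 0.12 and 0.0013 in the *Crlf2-/-* libraries, and genes over 12000 bp lay at -0.14, -0.080, 0.20, 0.13, -0.15 and 0.059 in the same order.

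Values below are FPKM, fragments scaled to gene length and library size, as deposited by the authors and then put on 1 scale with TMM factors (trimmed mean of M values). Libraries are given in the order of replicates 1, 2 and 3. Fold changes are *Crlf2-/-* over WT on the scale of log2(FPKM + 0.1), which understates the change of low genes. The limma test covered all 15520 genes, with Benjamini-Hochberg adjustment. To be called, a gene needed an adjusted p no higher than 0.05 and a log2 fold change of 0.5 or more in either direction. The study set the same thresholds with another test, DESeq2. It reported far more genes as different than were called here. DESeq2 was not run here, and what this gap comes from was not tested.

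None of the 42 proliferation genes was called different between *Crlf2-/-* and WT hearts (0 members, with 0.0129% of all tested genes called). At an unadjusted p under 0.05, 0 members were lower, with 3.36% of all genes lower, and 3 members were higher, with 3.22% of all genes higher. The 3 were *Gins2*, *Cenpe* and *Plk1*. The *Crlf2-/-* libraries all lay above the WT libraries for 2 members, *Gins2* and *Cenpe*, and all below for 0, where the shares of all genes were 5.37% and 6.37%. For the other 40 members the groups overlapped. Fitted fold changes were small and mostly on one side of 0. They were above 0 for 38 of 42 members (49.1% of all genes) and below 0 for *Pcna*, *Cdc6*, *Cdc20* and *Tpx2*, with a median of 0.15 (log2) and a range from -0.12 to 0.56, beside a median of -0.0042 over all tested genes. The 95% intervals of single members lay between -0.65 and 1.02. With limma's voom on the fragments 0 members were called too, 0 were lower and 3 higher at an unadjusted p under 0.05. In bulk tissue, a different number of dividing cells and a different amount of these transcripts per cell cannot be told apart.

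**Figure D1:**
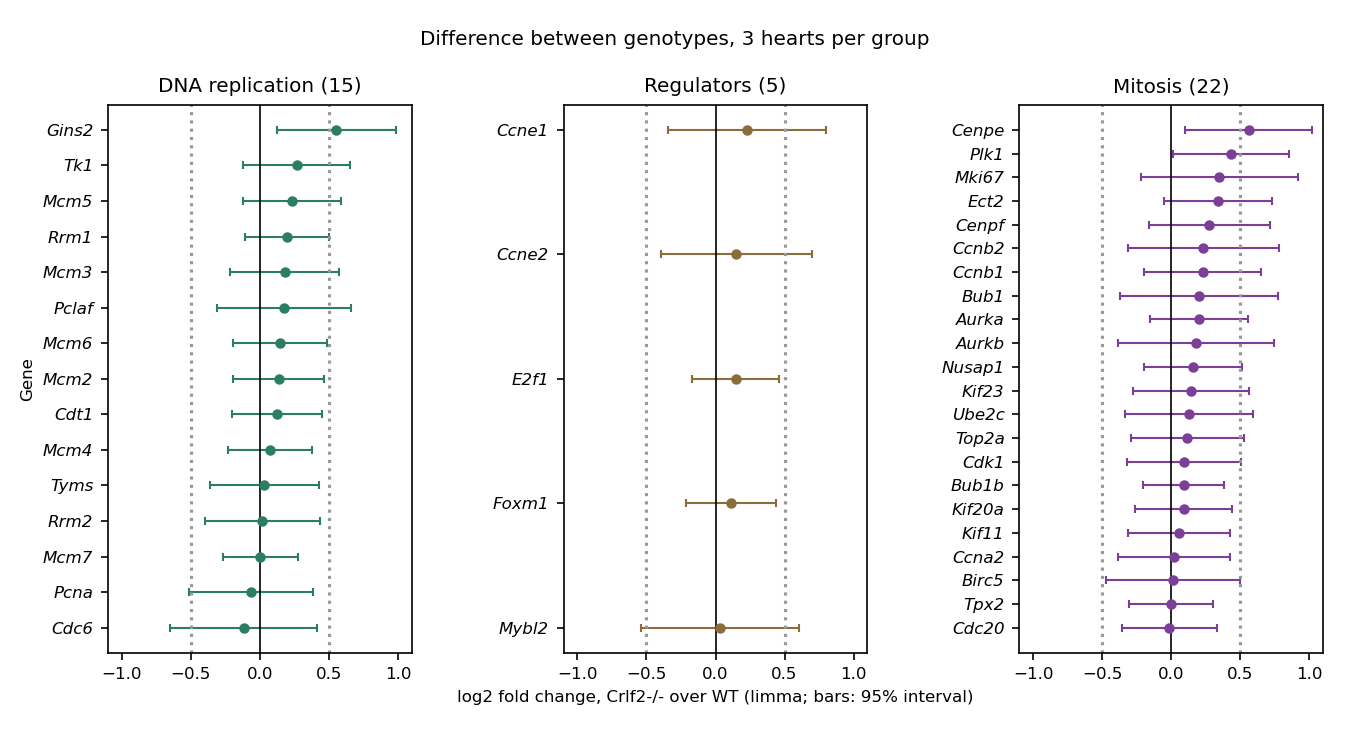
Log2 fold change of *Crlf2-/-* over WT for each member, by role, with its 95% interval from limma (n = 3 hearts per group) and dotted lines at the call threshold of 0.5 in either direction. The points lie between -0.12 and 0.56, 38 of 42 to the right of 0, and the intervals of *Gins2*, *Cenpe* and *Plk1* lie above 0.

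Among the 15 replication genes, the levels of *Pcna* were highest. *Pcna* (ENSMUSG00000027342, chr2:132249162-132253314, minus strand) encodes the sliding clamp that holds DNA polymerase on its template. It measured 44.0, 31.7 and 25.02 FPKM in the WT hearts and 31.0, 34.4 and 28.5 FPKM in the *Crlf2-/-* hearts. WT replicate 1 was the highest of the 6 hearts and WT replicate 3 the lowest, and the 3 *Crlf2-/-* hearts lay inside the WT range. The means were 33.6 ± 9.65 FPKM in WT against 31.3 ± 2.99 FPKM in *Crlf2-/-* hearts (mean ± SD, n = 3 each), with a log2 fold change of -0.066, a standard error of 0.196 and a limma adjusted p = 0.996. *Mcm6* (ENSMUSG00000026355, chr1:128331590-128359664, minus strand), a subunit of the MCM helicase that unwinds DNA at the fork, had 15.6, 13.6 and 10.7 FPKM in the WT hearts and 15.4, 14.98 and 13.3 FPKM in the *Crlf2-/-* hearts. Here again WT replicate 1 was highest and WT replicate 3 lowest. The means of *Mcm6* differed by less than the spread of the WT hearts, with 13.3 ± 2.45 FPKM in WT against 14.6 ± 1.12 FPKM in *Crlf2-/-* hearts (mean ± SD, n = 3 each), with a log2 fold change of 0.14, a standard error of 0.147 and a limma adjusted p = 0.980.

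*Gins2* (ENSMUSG00000031821, chr8:120578633-120589304, minus strand) encodes a subunit of the GINS complex, which joins the MCM ring to form the active helicase. It had 1.43, 1.27 and 0.970 FPKM in the WT hearts and 1.77, 2.07 and 1.65 FPKM in the *Crlf2-/-* hearts. The lowest *Crlf2-/-* heart lay above the highest WT heart, and *Gins2* was the only member of the 15 replication genes for which this held. With 1.22 ± 0.234 FPKM in WT against 1.83 ± 0.218 FPKM in *Crlf2-/-* hearts (mean ± SD, n = 3 each), it had the smallest p of the 42 members (log2 fold change 0.55, standard error 0.187, limma adjusted p = 0.559). These values rest on WT counts of 134, 114 and 87 fragments and *Crlf2-/-* counts of 160, 199 and 152. *Gins2* overlaps *Gse1*, on the opposite strand, over part of its length, and reads of the 2 genes cannot be told apart if counting ignored strand, which the sources used here do not state. The same holds for *Tk1*, *Mcm7*, *Pclaf*, *Ccne2*, *Ccna2*, *Cdc20*, *Kif20a* and *Nusap1*, which each overlap another tested gene. The fragments of *Gse1* numbered 190, 176 and 290 for the WT and 241, 168 and 315 for the *Crlf2-/-* hearts.

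The other replication genes had smaller differences. *Mcm5*, a further subunit of the MCM ring, measured 6.27, 5.13 and 4.17 FPKM in the WT hearts and 6.26, 5.68 and 6.20 FPKM in the *Crlf2-/-* hearts (log2 fold change 0.23, standard error 0.154, limma adjusted p = 0.918). The groups overlapped only through WT replicate 1. *Tk1*, the thymidine kinase of the salvage pathway, measured 2.81, 1.92 and 1.99 FPKM in the WT hearts and 2.82, 2.58 and 2.62 FPKM in the *Crlf2-/-* hearts (log2 fold change 0.27, standard error 0.168, limma adjusted p = 0.902). It too reached its *Crlf2-/-* level in WT replicate 1 and not in the other WT hearts. The lowest fold change of the group belonged to *Cdc6*, the loader of the helicase, with 1.25, 0.848 and 0.699 FPKM in the WT hearts and 0.858, 0.890 and 0.740 FPKM in the *Crlf2-/-* hearts (log2 fold change -0.12, standard error 0.232, limma adjusted p = 0.996). For *Cdc6* the *Crlf2-/-* hearts lay within the WT range. Over the 15 genes, 13 fitted fold changes were above 0 and 2 below, with a median of 0.14 (log2). The other subunits *Mcm2*, *Mcm3*, *Mcm4* and *Mcm7* had fold changes between 0.0043 and 0.18, and *Rrm1* and *Rrm2*, the subunits of the reductase that makes deoxynucleotides, had 0.20 and 0.018. *Tyms*, which makes thymidylate, had 0.033, the licensing factor *Cdt1* had 0.13 and the PCNA-binding protein *Pclaf* had 0.18. Summed over the 15 genes, the level was 132, 104 and 86.2 FPKM in WT and 115, 115 and 106 FPKM in *Crlf2-/-* hearts.

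**Figure D2:**
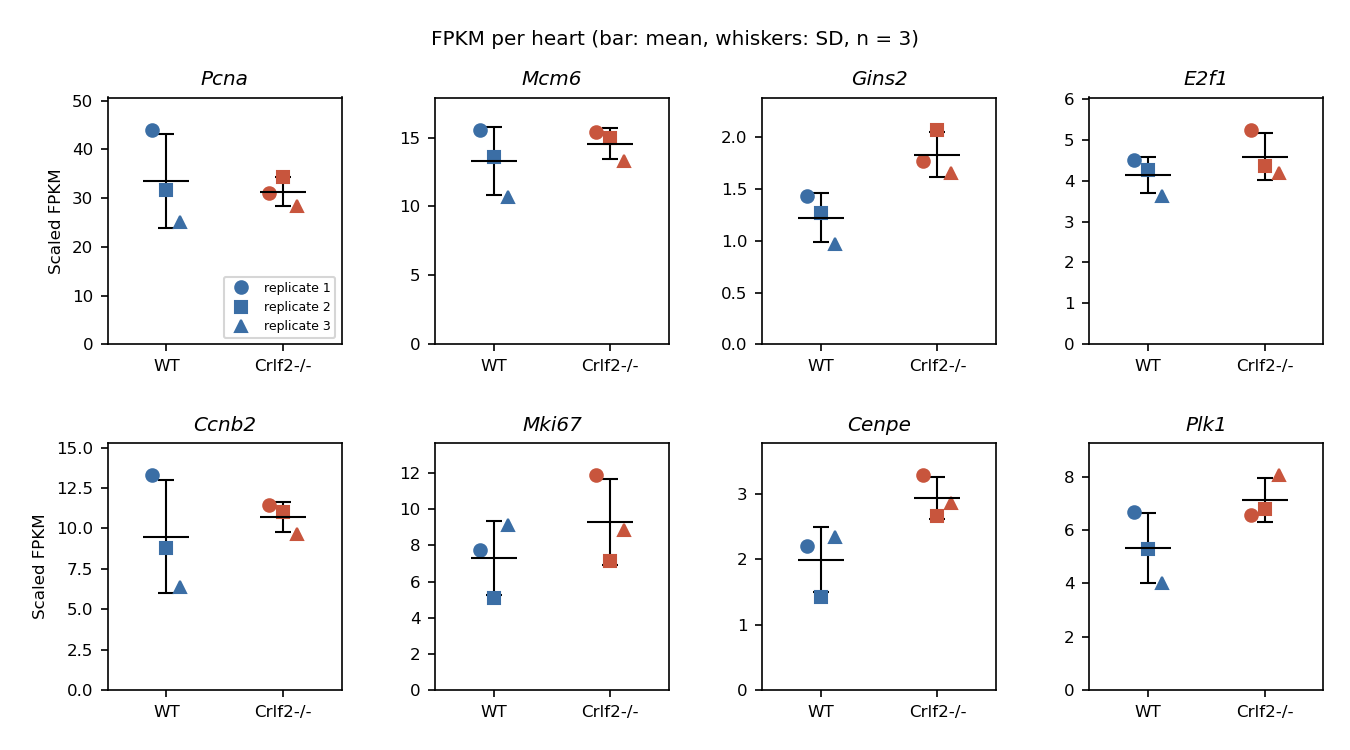
Scaled FPKM of 8 members in each heart, with marker shape for the replicate number, a bar for the mean and whiskers for the SD (n = 3). *Gins2* and *Cenpe* do not overlap between groups, whereas the *Crlf2-/-* hearts lie inside the WT range for *Pcna*, *Mcm6* and *Ccnb2*.

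All 5 regulators had fold changes above 0, and 0 of them had an unadjusted p under 0.05. *E2f1* (ENSMUSG00000027490, chr2:154559407-154569892, minus strand), the activating E2F factor of S phase genes, had 4.49, 4.26 and 3.63 FPKM in the WT hearts and 5.24, 4.35 and 4.18 FPKM in the *Crlf2-/-* hearts (log2 fold change 0.15, standard error 0.137, limma adjusted p = 0.967). *Crlf2-/-* replicate 1 was the highest heart and the other *Crlf2-/-* hearts lay within the WT range. Cyclin E1, encoded by *Ccne1* and a partner of CDK2 at the start of S phase, measured 3.01, 1.77 and 1.49 FPKM in the WT hearts and 2.59, 2.502 and 2.02 FPKM in the *Crlf2-/-* hearts (log2 fold change 0.23, standard error 0.248, limma adjusted p = 0.985). Its highest and lowest values were both in WT hearts. *Foxm1*, the factor that drives late mitotic genes, measured 3.03, 3.11 and 2.40 FPKM in the WT hearts and 3.24, 2.82 and 3.15 FPKM in the *Crlf2-/-* hearts (log2 fold change 0.11, standard error 0.142, limma adjusted p = 0.989). WT replicate 3 was the lowest heart and the other WT and *Crlf2-/-* hearts overlapped. In the remaining regulators, *Ccne2* (cyclin E2) and *Mybl2* (B-Myb, of the complex that acts at CHR sequences), the fold changes were 0.15 and 0.033. The median of the 5 was 0.15 (log2).

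*Mki67* (ENSMUSG00000031004, chr7:135689784-135716361, minus strand) encodes Ki67, the protein that coats mitotic chromosomes and marks cycling cells. It measured 7.72, 5.09 and 9.14 FPKM in the WT hearts and 11.9, 7.15 and 8.83 FPKM in the *Crlf2-/-* hearts. The highest value was in *Crlf2-/-* replicate 1 and the lowest in WT replicate 2, and the groups overlapped. With 7.32 ± 2.05 FPKM in WT against 9.29 ± 2.40 FPKM in *Crlf2-/-* hearts (mean ± SD, n = 3 each), the difference was not beyond the spread between hearts (log2 fold change 0.35, standard error 0.247, limma adjusted p = 0.929, 95% interval -0.22 to 0.92). The log2 fold change of *Mki67* was 0.11 without WT replicate 2, 0.16 without *Crlf2-/-* replicate 1, 0.53 without WT replicate 3 and 0.52 without *Crlf2-/-* replicate 2.

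*Cenpe* (ENSMUSG00000045328, chr3:135212537-135273611, plus strand), the kinesin that carries chromosomes to the spindle equator, had 2.21, 1.43 and 2.35 FPKM in the WT hearts and 3.28, 2.66 and 2.85 FPKM in the *Crlf2-/-* hearts. All 3 *Crlf2-/-* hearts lay above all 3 WT hearts. The means were 1.99 ± 0.495 FPKM in WT against 2.93 ± 0.318 FPKM in *Crlf2-/-* hearts (mean ± SD, n = 3 each), with a log2 fold change of 0.56, a standard error of 0.200 and a limma adjusted p = 0.618, from WT counts of 435, 269 and 443 fragments and *Crlf2-/-* counts of 625, 538 and 553. *Plk1* (ENSMUSG00000030867, chr7:122159439-122169873, plus strand), the Polo-like kinase of mitotic entry and spindle assembly, had 6.66, 5.30 and 4.03 FPKM in the WT hearts and 6.55, 6.78 and 8.05 FPKM in the *Crlf2-/-* hearts. *Crlf2-/-* replicate 3 was highest, and *Crlf2-/-* replicate 1 lay just below WT replicate 1. Its means were 5.33 ± 1.32 FPKM in WT against 7.13 ± 0.810 FPKM in *Crlf2-/-* hearts (mean ± SD, n = 3 each), with a log2 fold change of 0.44, a standard error of 0.183 and a limma adjusted p = 0.740. *Ect2*, the exchange factor that sets the site of cytokinesis, measured 3.07, 2.21 and 2.01 FPKM in the WT hearts and 3.21, 2.97 and 2.95 FPKM in the *Crlf2-/-* hearts (log2 fold change 0.34, standard error 0.170, limma adjusted p = 0.827). WT replicate 1 alone reached the level of the *Crlf2-/-* hearts.

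The most abundant mitosis genes were less different between the groups. *Ccnb2* (ENSMUSG00000032218, chr9:70407692-70421547, minus strand), the cyclin B2 that activates CDK1, had 13.3, 8.81 and 6.38 FPKM in the WT hearts and 11.5, 11.0 and 9.68 FPKM in the *Crlf2-/-* hearts (log2 fold change 0.23, standard error 0.237, limma adjusted p = 0.980). The WT hearts spread from the lowest to the highest value of the 6, and the *Crlf2-/-* hearts lay between. *Top2a* (ENSMUSG00000020914, chr11:98992943-99024189, minus strand), the topoisomerase that untangles sister chromatids, had 11.7, 8.28 and 7.76 FPKM in the WT hearts and 11.8, 8.81 and 9.26 FPKM in the *Crlf2-/-* hearts (log2 fold change 0.12, standard error 0.179, limma adjusted p = 0.995). Replicate 1 was the highest heart of each group. *Cdc20*, the activator of the ligase that ends mitosis, had 9.48, 8.99 and 7.53 FPKM in the WT hearts and 7.03, 9.23 and 9.62 FPKM in the *Crlf2-/-* hearts (log2 fold change -0.012, standard error 0.150, limma adjusted p = 0.996). It was the only member that was lowest in a *Crlf2-/-* heart. Of the 22 mitosis genes, 20 had fold changes above 0 and 2 below, with a median of 0.15 (log2). The partner of cyclin B, *Cdk1*, had 0.093, with 0.23 for *Ccnb1* and 0.020 for *Ccna2* (cyclins B1 and A2). For the checkpoint kinases *Bub1* and *Bub1b* the values were 0.20 and 0.092, and for the Aurora kinases *Aurka* and *Aurkb* they were 0.20 and 0.18. *Birc5*, the survivin partner of Aurora B, had 0.012. The kinesins *Kif11*, *Kif20a* and *Kif23*, of spindle poles and cytokinesis, had 0.058, 0.090 and 0.15. *Cenpf*, of the kinetochore, had 0.28, the spindle proteins *Nusap1* and *Tpx2* had 0.16 and -0.00069, and the ubiquitin-conjugating enzyme *Ube2c* had 0.13. Summed over the 22 genes, the level was 137, 105 and 92.7 FPKM in WT and 128, 121 and 120 FPKM in *Crlf2-/-* hearts.

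**Figure D3:**
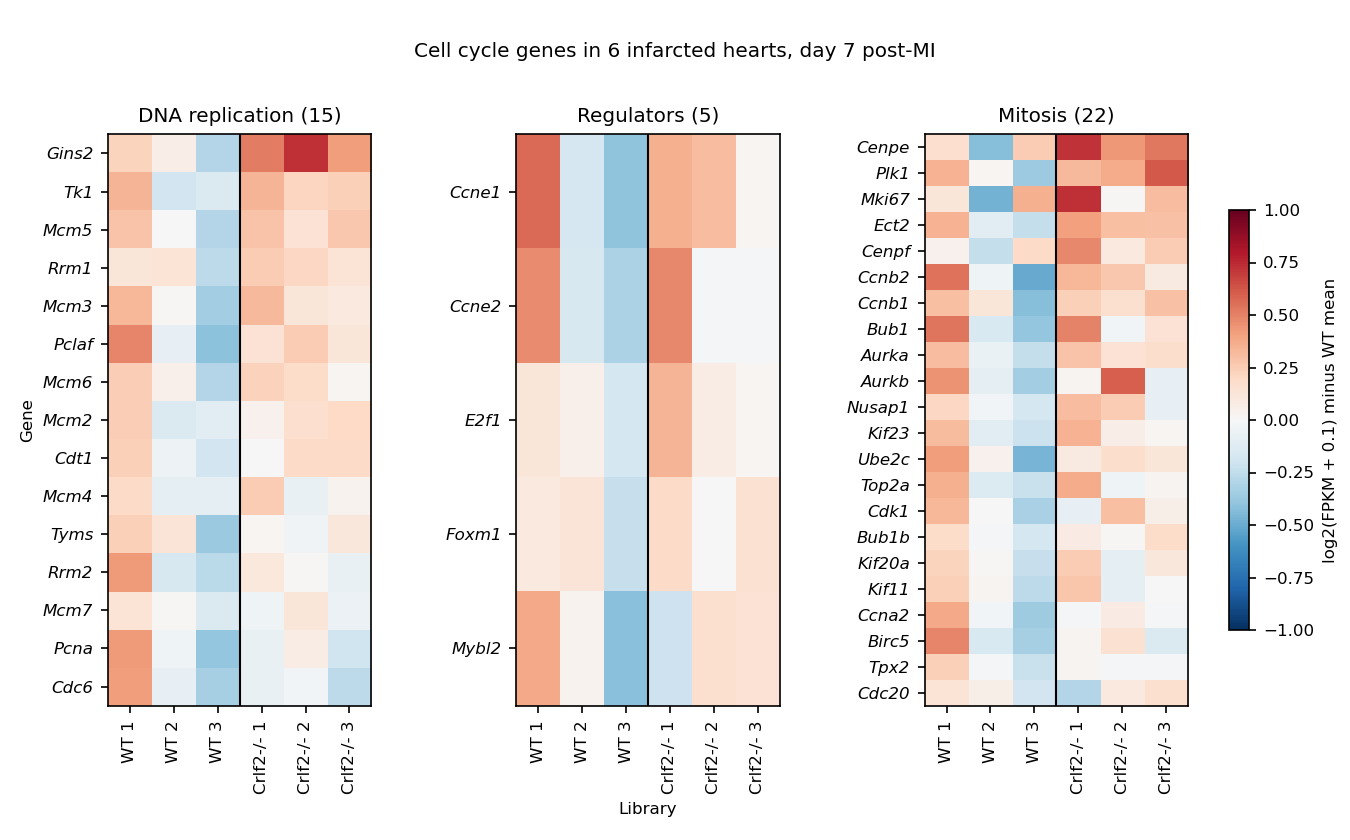
Each member (y axis) in each library (x axis), coloured by its log2(FPKM + 0.1) minus the WT mean, by role and ordered by fold change. The column of WT replicate 1 is red and that of WT replicate 3 blue for most genes, while the 3 *Crlf2-/-* columns differ less from each other.

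The replication and the mitosis genes had their highest and lowest medians in the same hearts. The median of the replication genes relative to their WT means was 0.25, -0.046 and -0.29 (log2) in the WT libraries and 0.15, 0.15 and 0.11 in the *Crlf2-/-* libraries. That of the mitosis genes was 0.31, -0.037 and -0.24 in WT and 0.28, 0.12 and 0.12 in *Crlf2-/-* libraries, and that of the regulators 0.38, 0.037 and -0.31 in WT and 0.34, 0.077 and 0.021 in *Crlf2-/-* libraries. In all 3 groups of genes WT replicate 1 was the highest library and WT replicate 3 the lowest. The difference of the medians, replication minus mitosis, was -0.063, -0.0090 and -0.049 in WT and -0.13, 0.025 and -0.0021 in *Crlf2-/-* libraries. The ranges of the groups overlapped, and the difference of the median fold changes was -0.016. *Crlf2-/-* replicate 1, in which mitosis genes stood above replication genes by more than in the other libraries, was the highest library for 9 of 22 mitosis genes and 3 of 15 replication genes.

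The members varied more between WT hearts than between *Crlf2-/-* hearts. The SD of log2 values was larger over WT than over *Crlf2-/-* hearts for 38 of 42 members (90.5%), where this held for 48.2% of all genes, and the exceptions were *Cdc20*, *Nusap1*, *E2f1* and *Mcm4*. The median SD of the members was 0.31 over WT and 0.13 over *Crlf2-/-* hearts. Many members were highest or lowest in the same libraries, so counts of members, here and above, are not separate observations. They describe 3 hearts per group. Among cell cycle genes outside the 42 members, the WT SD was larger for 27 of 38 replication and 41 of 53 mitosis genes. It was larger for 9 of 16 further cyclins, CDKs and E2F and MYC factors and for 4 of 13 CDK inhibitors and pocket proteins. Among cell type markers this held for 8 of 10 of monocytes and macrophages, 7 of 9 of T cells and 3 of 8 of cardiomyocytes. For the other marker lists it held for 4 of 5 of neutrophils, 5 of 8 of fibroblasts and 4 of 7 of endothelium. It also held for 3 of 5 of red cells and 3 of 6 of B cells. From the lowest to the highest heart the median member spanned 1.501-fold in WT and 1.20-fold in *Crlf2-/-*. Every *Crlf2-/-* value lay inside the WT range for 23 members, where this held for 17.9% of all genes. For 37 members the difference of the group means was smaller than the WT SD (log2), where this held for 64.4% of all genes, the other members being *Cenpe*, *Cenpf*, *Ect2*, *Plk1* and *Gins2*. WT replicate 1 was the highest of the 6 libraries for 23 members and *Crlf2-/-* replicate 1 for 15, where the shares of all genes were 18.7% and 17.9%. WT replicate 3 was the lowest library for 35 members, against 20% of all genes. Summed over the 42 members, the level was 284, 221 and 189 FPKM in WT and 257, 248 and 239 FPKM in *Crlf2-/-* hearts, or 231 ± 48.6 and 248 ± 9.39 (mean ± SD, n = 3).

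Leaving out WT replicate 1 or WT replicate 3, which lay at opposite ends, moved the counts in opposite directions. Without WT replicate 1, 11 members had an unadjusted p under 0.05 and were higher in *Crlf2-/-* hearts (3.28% of all genes in that comparison), all 42 fitted fold changes were above 0 (50.2% of all genes), and the *Crlf2-/-* libraries lay above the remaining WT libraries for 26 members (10.3% of all genes). The median fold change over the 42 members was then 0.26 (log2). Without WT replicate 3, 1 member had an unadjusted p under 0.05 and was higher, 23 fitted fold changes were above 0 and the median was 0.0051. The shares of all genes were 4.05% and 46.8% for these 2 counts. By role, the median without WT replicate 3 was 0.0090 for the replication genes, -0.0023 for the regulators and 0.0051 for the mitosis genes. Without WT replicate 1 these medians were 0.26, 0.22 and 0.30. In neither case was a member called. The number of members higher at an unadjusted p under 0.05 was 1, in place of 3, without WT replicate 2 (2.5% of all genes), without *Crlf2-/-* replicate 1 (3.65%) and without *Crlf2-/-* replicate 2 (2.62%).

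**Figure D4:**
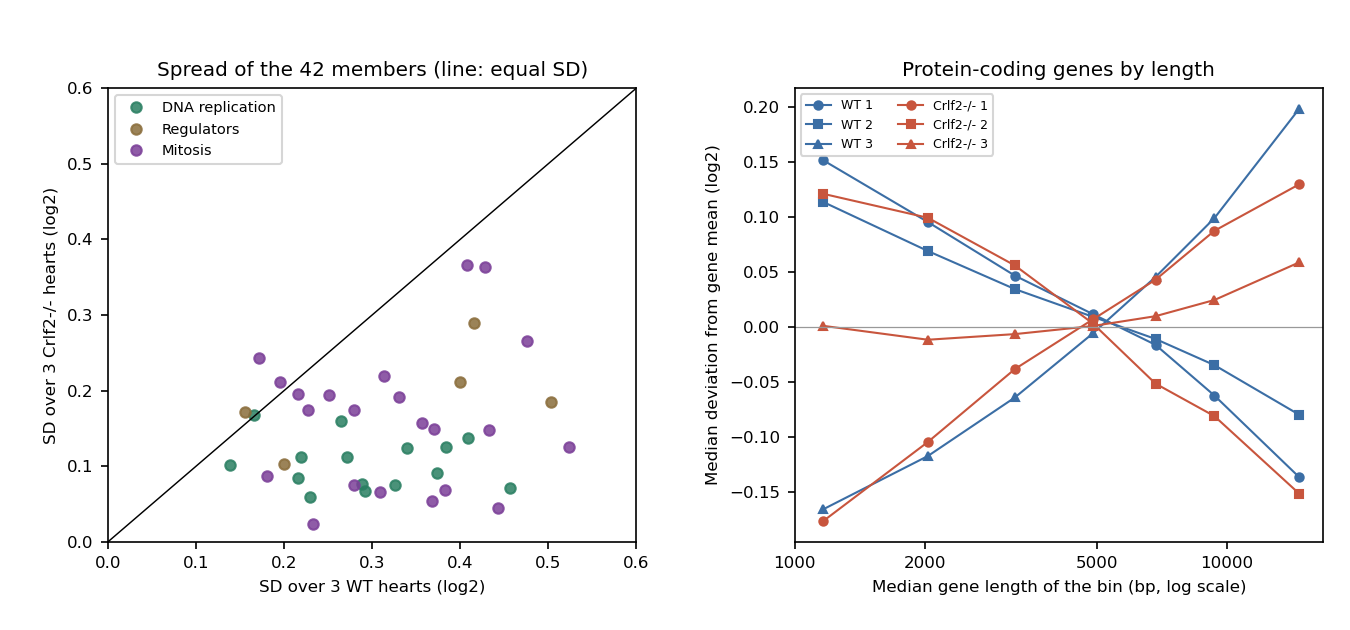
Left, SD of log2 values of each member over the 3 WT hearts (x axis) against the 3 *Crlf2-/-* hearts (y axis), with a line at equal SD that 38 of 42 members lie below. Right, median deviation from the gene mean (log2) of protein-coding genes in 7 bins of length in each library, from 0.15 to -0.14 in WT replicate 1 and from -0.17 to 0.20 in WT replicate 3.

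The order of the WT libraries was also set beside gene length. Of the 5 members over 8000 bp, *Mki67*, *Cenpe*, *Cenpf*, *Top2a* and *Rrm1*, WT replicate 3 was lowest for 2, and for *Mki67*, *Cenpe* and *Cenpf* WT replicate 2 was lowest. Of the 37 shorter members, WT replicate 3 was lowest for 33, the others being *Mcm2*, *Mcm4*, *Tk1* and *Cdc20*. The median fold change was 0.28 (log2) over the 5 long members and 0.14 over the others. When each library was centred within 20 bins of gene length, WT replicate 3 was still lowest for 35 members. The members' medians per library were then 0.28, -0.058 and -0.26 in WT and 0.25, 0.11 and 0.12 in *Crlf2-/-* libraries. The log2 fold changes after centring were 0.34 for *Mki67*, 0.55 for *Cenpe*, 0.55 for *Gins2* and 0.45 for *Plk1*, 3 members were higher at an unadjusted p under 0.05 (3.99% of all genes) and the *Crlf2-/-* libraries lay above the WT libraries for 4 (6.28% of all genes).

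Other replication genes were read in the same way. Of 38 further replication genes 0 were called, 0 were lower and 1 was higher at an unadjusted p under 0.05 by limma. The shares of all genes were 3.36% lower and 3.22% higher. The median fold change of the 38 genes was 0.15 (log2), with 27 above 0 (49.1% of all genes). The *Crlf2-/-* hearts all lay above the WT hearts for 4 of them (*Rfc5*, *Dscc1*, *Exo1* and *Prim2*) and all below for 0, where 5.37% and 6.37% of all genes did so. The 1 higher gene was *Chaf1b*, of the chaperone that puts histones on new DNA, with 1.08, 0.860 and 0.722 FPKM in the WT hearts and 1.74, 1.505 and 1.02 FPKM in the *Crlf2-/-* hearts (log2 fold change 0.61, standard error 0.240, limma adjusted p = 0.702). *Crlf2-/-* replicate 3 lay below WT replicate 1. *Rfc5*, a subunit of the loader of PCNA, had 2.68, 2.02 and 1.91 FPKM in the WT hearts and 2.70, 3.01 and 2.69 FPKM in the *Crlf2-/-* hearts (log2 fold change 0.35, standard error 0.158, limma adjusted p = 0.796). It was 1 of the 4 genes without overlap. *Rpa3*, of the complex that covers single-stranded DNA, had 7.78, 9.74 and 9.08 FPKM in the WT hearts and 8.10, 7.29 and 6.78 FPKM in the *Crlf2-/-* hearts (log2 fold change -0.26, standard error 0.123, limma adjusted p = 0.809). The polymerase subunit *Pold3* had 5.96, 4.84 and 4.78 FPKM in the WT hearts and 5.01, 4.51 and 3.88 FPKM in the *Crlf2-/-* hearts (log2 fold change -0.21, standard error 0.141, limma adjusted p = 0.918). The groups overlapped for both. The medians of the 38 genes per library were 0.21, -0.042 and -0.18 in WT and 0.22, 0.16 and 0.048 in *Crlf2-/-* libraries, with the lowest in WT replicate 3 as for the members. Without WT replicate 3 the median fold change was 0.066, and without WT replicate 2 it was 0.093. Without WT replicate 1 it was 0.29.

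Of 53 further mitosis genes 0 were called, 0 were lower and 1 was higher at an unadjusted p under 0.05 by limma. The shares of all genes were 3.36% lower and 3.22% higher. The median fold change of the 53 genes was 0.12 (log2), with 45 above 0 (49.1% of all genes). The *Crlf2-/-* hearts all lay above the WT hearts for 3 of them (*Aspm*, *Cdc25c* and *Ncapd2*, against 5.37% of all genes) and all below for 0. The higher gene was *Aspm*, a spindle pole protein, with 1.147, 0.927 and 1.22 FPKM in the WT hearts and 1.76, 1.29 and 1.52 FPKM in the *Crlf2-/-* hearts (log2 fold change 0.44, standard error 0.185, limma adjusted p = 0.748). The phosphatase *Cdc25c*, which activates CDK1, had 1.67, 1.44 and 0.870 FPKM in the WT hearts and 1.73, 1.96 and 1.70 FPKM in the *Crlf2-/-* hearts (log2 fold change 0.45, standard error 0.233, limma adjusted p = 0.829). Neither *Aspm* nor *Cdc25c* overlapped between the groups. *Dscc1*, *Exo1*, *Prim2* and *Ncapd2* were named only for this lack of overlap, after their values were seen. The related phosphatase *Cdc25b* had 6.15, 5.32 and 4.95 FPKM in the WT hearts and 5.72, 4.74 and 4.67 FPKM in the *Crlf2-/-* hearts (log2 fold change -0.12, standard error 0.132, limma adjusted p = 0.988). The chromatin protein *Hmgb2* had 14.2, 12.1 and 10.6 FPKM in the WT hearts and 11.3, 12.5 and 9.88 FPKM in the *Crlf2-/-* hearts (log2 fold change -0.12, standard error 0.140, limma adjusted p = 0.988). Both overlapped, and both were highest in WT replicate 1. The medians of the 53 genes per library were 0.28, -0.037 and -0.22 in WT and 0.18, 0.13 and 0.11 in *Crlf2-/-* libraries. The median fold change was -0.0031 without WT replicate 3 and 0.28 without WT replicate 1.

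A list of further cyclins, CDKs and E2F and MYC factors, mainly but not only of G1, had a median nearer to 0. Its 16 genes had a median fold change of 0.0046 (log2), with 8 above and 8 below 0. At an unadjusted p under 0.05 by limma, 1 was lower and 1 higher, where 3.36% of all genes were lower and 3.22% higher. *Mycn*, a growth factor-responsive transcription factor, had 0.358, 0.652 and 0.651 FPKM in the WT hearts and 0.192, 0.376 and 0.203 FPKM in the *Crlf2-/-* hearts (log2 fold change -0.87, standard error 0.299, limma adjusted p = 0.576). The groups overlapped in *Mycn*, as WT replicate 1 lay below *Crlf2-/-* replicate 2, and its values rest on WT counts of 27, 47 and 47 fragments and *Crlf2-/-* counts of 14, 29 and 15. *E2f8*, a repressive E2F factor that is itself made in S phase, had 1.06, 0.908 and 0.923 FPKM in the WT hearts and 1.29, 1.27 and 1.36 FPKM in the *Crlf2-/-* hearts (log2 fold change 0.41, standard error 0.160, limma adjusted p = 0.702). For *E2f8* the groups did not overlap, and for 5.37% of all genes the *Crlf2-/-* hearts all lay above the WT hearts. *Myc*, a driver of growth and cell cycle entry, had 5.52, 5.05 and 4.97 FPKM in the WT hearts and 6.19, 7.12 and 5.49 FPKM in the *Crlf2-/-* hearts (log2 fold change 0.26, standard error 0.125, limma adjusted p = 0.807). *Crlf2-/-* replicate 2 was the highest heart, and *Crlf2-/-* replicate 3 lay just below WT replicate 1. *Ccnd1*, the cyclin D1 of G1, had 8.03, 9.04 and 9.68 FPKM in the WT hearts and 9.02, 6.47 and 8.93 FPKM in the *Crlf2-/-* hearts (log2 fold change -0.14, standard error 0.151, limma adjusted p = 0.984). Its lowest value was in *Crlf2-/-* replicate 2. The medians of the 16 genes lay between -0.055 and 0.059 over the 6 libraries.

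Among 13 CDK inhibitors, pocket proteins and antiproliferative genes, 0 were lower and 0 higher at an unadjusted p under 0.05 by limma. The shares of all genes were 3.36% lower and 3.22% higher. The median of the 13 genes was -0.029 (log2). *Cdkn1a* (p21), an inhibitor of CDK2, had 25.7, 28.5 and 21.8 FPKM in the WT hearts and 20.8, 23.0 and 21.6 FPKM in the *Crlf2-/-* hearts (log2 fold change -0.21, standard error 0.121, limma adjusted p = 0.867). WT replicate 2 was the highest heart, and the groups overlapped. *Cdkn1c* (p57) had 6.80, 6.46 and 6.16 FPKM in the WT hearts and 4.15, 7.52 and 3.82 FPKM in the *Crlf2-/-* hearts (log2 fold change -0.39, standard error 0.234, limma adjusted p = 0.889). *Cdkn2b* (p15), an inhibitor of CDK4 and CDK6, had 9.94, 10.9 and 8.84 FPKM in the WT hearts and 8.44, 16.1 and 14.2 FPKM in the *Crlf2-/-* hearts (log2 fold change 0.33, standard error 0.226, limma adjusted p = 0.924). For both, *Crlf2-/-* replicate 2 was the highest heart. Without that library the log2 fold change was -0.69 for *Cdkn1c* and 0.15 for *Cdkn2b*. The pocket protein *Rbl1* (p107), a partner of E2F, had 3.30, 2.39 and 2.99 FPKM in the WT hearts and 3.79, 2.76 and 2.64 FPKM in the *Crlf2-/-* hearts (log2 fold change 0.073, standard error 0.182, limma adjusted p = 0.996). The groups overlapped, with the highest value in *Crlf2-/-* replicate 1. The medians of the 13 genes were 0.029, 0.013 and -0.069 in WT and -0.22, 0.15 and -0.066 in *Crlf2-/-* libraries, so the *Crlf2-/-* libraries held both extremes. The SD was larger over WT than over *Crlf2-/-* hearts for 4 of the 13 genes.

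**Figure D5:**
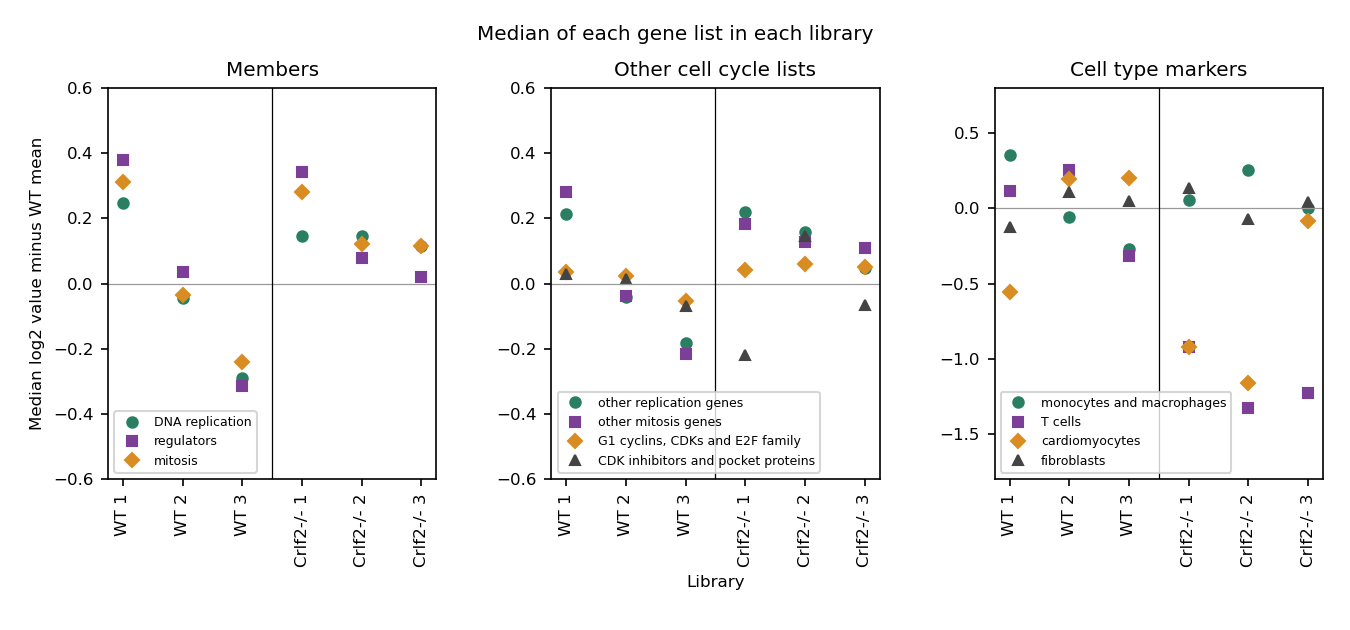
Median log2(FPKM + 0.1) minus the WT mean of each gene list in each library (x axis), for the members by role, for the other cell cycle lists and for 4 lists of cell type markers. The member medians run from 0.25 to 0.38 in WT replicate 1 and from -0.31 to -0.24 in WT replicate 3.

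Cell types were not separated, and markers of several cell types differed between the same libraries. The 10 monocyte and macrophage markers summed to 4475, 3291 and 2494 FPKM in WT and 3636, 3473 and 3002 FPKM in *Crlf2-/-* hearts. The highest of the 6 hearts was WT replicate 1 and the lowest WT replicate 3, as for the summed members. *Lyz2*, a lysozyme, made up 2593, 1875 and 1311 FPKM of these sums in WT and 2137, 1648 and 1402 FPKM in *Crlf2-/-* hearts. The other 9 markers summed to 1882, 1416 and 1183 FPKM in WT and 1499, 1825 and 1599.7 FPKM in *Crlf2-/-* hearts, so the order of the hearts between these extremes differed from that of the members. Between groups, 1 of these 10 markers was higher at an unadjusted p under 0.05 by limma, and the median fold change was 0.11 (log2). At this p, 3.22% of all genes were higher and 3.36% lower, which are the shares for all marker lists here. Neutrophil markers, 5 of 6 tested, summed to 27.3, 16.69 and 16.01 FPKM in WT and 23.5, 22.3 and 16.8 FPKM in *Crlf2-/-* hearts. The 9 T cell markers had another order, with the highest sum in WT replicate 2. All 9 were lower at an unadjusted p under 0.05, with a median of -1.06 and sums of 18.9, 21.4 and 13.8 FPKM in WT and 10.1, 8.65 and 7.98 FPKM in *Crlf2-/-* hearts. Cardiomyocyte markers had a median of -0.72, with 3 of 8 lower, and red cell markers a median of -1.29, with 5 of 5 tested lower. Fibroblast markers summed to between 6448 and 8111 FPKM and endothelial markers to between 128 and 159 FPKM, with 1 of 8 and 1 of 7 lower. A single marker in so short a list cannot be told from the share of all genes. B cell markers had sums of 5.61, 7.77 and 6.13 FPKM in WT and 9.21, 4.62 and 5.18 FPKM in *Crlf2-/-* hearts. No marker was at 0 in all 6 libraries (0 genes). The share of these cell types in the members' values was not tested.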

How the data were processed

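Infarcted hearts taken on day 7 gave 1 library for each of 3 WT and 3 *Crlf2-/-* mice. After trimming, the authors used HISAT2 2.0.5 for alignment and featureCounts for counting, and the deposited values are FPKM. The submitters' processing notes list the builds mm10 and hg38, and gene positions in the table matched GENCODE M21 (GRCm38) for 41 of the 42 members. Whether counting used strand is not given in the sources used here, and 9 members overlap another tested gene on the opposite strand. The extraction text of the labels names another tissue than the tissue label, which says heart and was followed. Values of FPKM multiplied by gene length were whole multiples of 1 fragment (within 0.01), so fragments were worked out. Their totals give the depth, and intervals cover the spread between hearts.

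A gene was kept if 3 or more libraries had 10 or more fragments and all libraries together had 15 or more. TMM factors (trimmed mean of M values) were applied to the FPKM, and log2(FPKM + 0.1) was tested with limma 3.58.1 in R 4.3.3 (eBayes with trend and robust, two-sided, Benjamini-Hochberg adjustment over all tested genes). With 3 hearts against 3, an exact permutation test cannot give a p below 0.1, so none is printed. The scripts were checked on simulated data. Tables and figures were made with Python 3.11.15, numpy 2.4.6, pandas 2.3.3 and matplotlib 3.10.9.

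The members, gene lists and tests were chosen with earlier results of these data known. Named with full values were *Mki67* and, for each role, the 2 most abundant members, the 3 with the smallest p and the largest difference in each direction, and for other lists the 2 smallest p in each direction. Alternatives were other scalings, filters and pseudocounts, voom on fragments, a replicate block, each library left out and, chosen after seeing the data, centring by gene length.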

Additional observations from a re-analysis of the deposited data

How the results depend on the processing

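Alternatives gave 705 values to set beside the reported ones, of which 671 were labelled the same, 22 moved and 12 reversed. For the fold change of a gene, the same meant an unchanged sign and side of the call threshold. For a count it meant equal or within a set ratio. For a list median, or a difference of medians, it meant a shift smaller than the SD over the WT libraries. A median could therefore change sign and still be labelled the same. The number of members called different was 0 in each of them, with 0 lower at an unadjusted p under 0.05, and between 1 and 11 were higher (3 as reported, 11 without WT replicate 1). Among all genes, 2 were called, against 6 with no filter on low genes, 1 with at least 10 fragments in every library, 4 with centring by gene length and 1 to 14 with each library left out (14 without *Crlf2-/-* replicate 1, 8 without WT replicate 3). The *Crlf2-/-* libraries lay above the WT libraries for 2 members, for 4 with centring by length and for 3 to 26 with a library left out, and below for 0 to 1. The shares of all genes above were 5.37%, 6.28% with centring and 10.3% without WT replicate 1, where 26 members did so. With fewer libraries in a group, a lack of overlap is easier to reach for every gene. The difference of replication and mitosis medians ranged from -0.099 (without *Crlf2-/-* replicate 3) to 0.0040 (without WT replicate 3). The fitted fold change of 1 of the 42 members, *Tpx2*, changed sign with centring by gene length, and 0 did under the other scalings, filters and pseudocounts, voom and the block. With a library left out 3 to 15 members changed sign (15 without WT replicate 3). Among the genes described with full values, log2 fold changes ranged from -0.019 to 0.50 for *Ccnb2*, from -0.22 to 0.014 for *Ccnd1*, from -0.11 to 0.13 for *Cdc20*, from -0.29 to 0.091 for *Cdc6*, from -0.0023 to 0.18 for *Foxm1*, from -0.0024 to 0.27 for *Mcm6*, from -0.26 to 0.15 for *Pcna*, from -0.086 to 0.17 for *Rbl1* and from -0.0083 to 0.30 for *Top2a*. Without WT replicate 3 the medians of the regulators (-0.0023) and of the further mitosis genes (-0.0031) turned below 0. The median of the CDK inhibitor list was -0.13 without *Crlf2-/-* replicate 2. What causes these differences was not tested. Same-numbered WT and *Crlf2-/-* libraries deviated together with correlations of -0.016, 0.115 and 0.12, so the numbers were not taken as pairs. With the replicate number as a block, 4 genes and 0 members were called and 2 members were higher at an unadjusted p under 0.05 (3.36% of all genes). Depth gave each member at least 58 fragments in every library.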
